A study of Saccharomyces cerevisiae with 4 samples.

Results

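The genes described here encode the proteins of the cytoplasmic ribosome of budding yeast. They were picked out by name, with earlier results of these data known. The rule took every probe whose symbol in the array annotation is RPL or RPS followed by a number and, where there is one, a copy letter A or B. It also took RPP0, RPP1A, RPP1B, RPP2A and RPP2B. The rule found 127 of the 6388 gene probes, for 125 symbols, of which 74 probes belong to the large (60S) subunit and 53 to the small (40S) subunit. RPL9B and RPL35A are each named by a pair of probes. Ribosomal protein genes whose symbol names no probe in the annotation were not analysed here.

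A ribosome is assembled in the nucleolus from ribosomal RNA and equal amounts of each ribosomal protein, and in a growing yeast cell the messages for these proteins are among the most abundant of all. Their genes are transcribed together under the general factor Rap1 with Fhl1, Ifh1 and Sfp1, downstream of the TORC1 and protein kinase A pathways that read nutrient supply. Most of them exist as a pair of copies left by an ancient genome duplication, written A and B, whose proteins are identical or nearly so while their introns, untranslated regions and promoters differ.

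The question put to the data was how these messages compare between cells in low and in standard phosphate, by subunit and by gene copy. All cells were of the haploid strain BY4742, of mating type alpha and otherwise wild-type, and carried the centromeric LEU2 plasmid YCpLac111. They grew for a pair of doublings in glucose-containing synthetic complete medium made without phosphate and then supplied with it at 75 uM for the low or 10 mM for the standard condition. Each condition was measured on 2 spotted oligonucleotide arrays with 2 dyes each, called a and b, against RNA from a single large culture of wild-type BY4742 with no plasmid or treatment in its labels. The sample carried Cy3 on the a arrays and Cy5 on the b arrays, so letter and dye cannot be told apart. The series text speaks of independent cultures, while the titles give both arrays of a condition the same number before the letter, and if they shared a culture the p-values below would measure technical spread only. Values are log2 ratios of sample over this reference unless stated otherwise, differences are low minus standard phosphate with the standard error (SE) of the limma fit, and every adjusted p comes from limma with Benjamini-Hochberg adjustment over all 6388 probes.

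As a check of the labels, the ratio of the phosphate transporter gene PHO84 was 2.26 and 2.21 under standard and 3.47 and 3.92 under low phosphate (arrays a and b in each case). Low phosphate b stood apart from the other arrays in spread, with a standard deviation over all gene probes of 0.60 against 0.20 to 0.27. The main results for the members are given with and without it, and the differences of the other gene lists only with it included. With 4 arrays, their number limits the precision.

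Ribosomal protein messages had a lower mean in low phosphate for 125 of 127 probes, and in the medians that shift lay on 1 of the 4 arrays. The median over the members was -0.056 on standard phosphate a, -0.034 on standard phosphate b, -0.048 on low phosphate a and -0.57 on low phosphate b. The low phosphate a array thus lay between the standard arrays, while low phosphate b lay below the other 3. The lowest and highest member were at -0.38 and 0.54 on standard phosphate a, -0.53 and 0.28 on standard phosphate b, -0.36 and 0.29 on low phosphate a and -1.63 and 0.080 on low phosphate b, where 122 of the members had their lowest value of the 4. The median difference was -0.28 over the members and 0.00010 over all gene probes, of which 3192 had a lower mean. Without low phosphate b the members' median was -0.0088, with 70 of 127 lower, and without low phosphate a it was -0.56, with 127 of 127 lower. These arrays measure relative levels in RNA from a whole culture, so less message in every cell and fewer cells carrying it cannot be told apart.

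The subunits gave close values. The 60S median was -0.073, -0.010, -0.024 and -0.57 on standard a, standard b, low a and low b, and the 40S median was -0.047, -0.042, -0.068 and -0.59 on the same arrays. The median difference was -0.26 for 60S (73 of 74 lower) and -0.30 for 40S (52 of 53 lower), a gap of 0.035 between subunits beside a standard deviation of 0.031 between arrays of a condition in that gap. Member by member, 125 of 127 probes on low phosphate b lay below both standard arrays, including all 74 of 60S. On low phosphate a, 45 lay below both standard arrays, 35 above both and 47 between them. The conditions did not overlap for 44 members, all lower in low phosphate, where 26.8% of all gene probes did not overlap in that direction and 26.5% in the other. The members' share was 34.6%. Of the 44, 21 were of 74 60S probes and 23 of 53 40S probes.

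**Figure D1:**
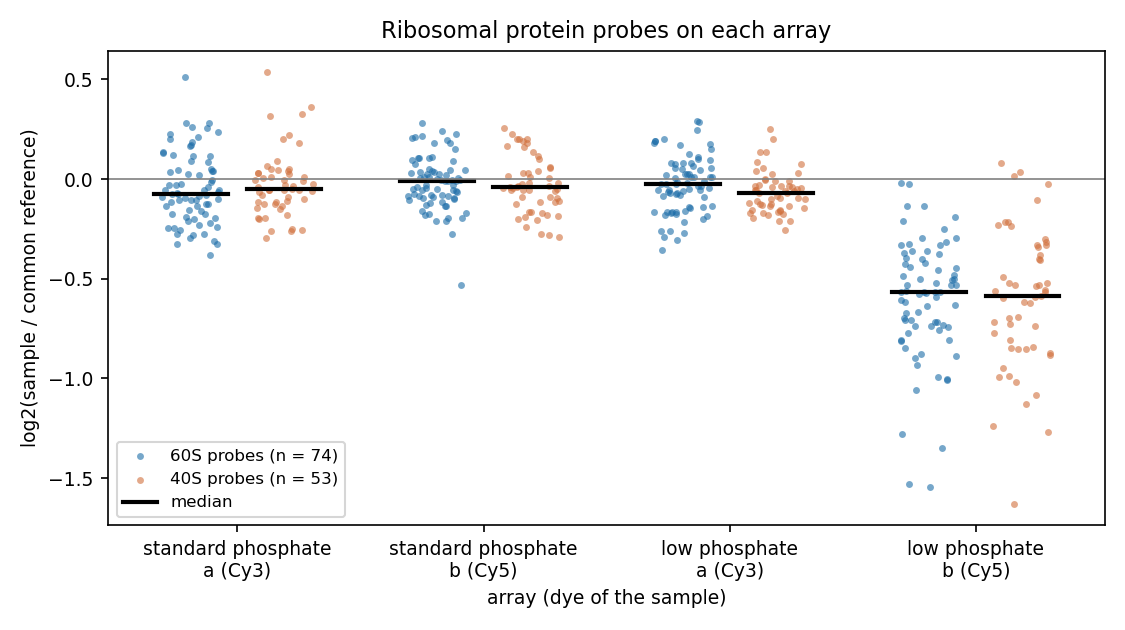
Log2 ratio of sample over common reference (vertical axis) for each ribosomal protein probe on each of the 4 arrays (horizontal axis, with the dye of the sample), 60S in blue and 40S in orange, with a black line at each median. On low phosphate b the points lie around medians of -0.57 and -0.59, whereas the medians on the other 3 arrays lie between -0.073 and -0.010.

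No single member passed the test. At an adjusted p under 0.05 limma called 0 of 127 members between the conditions, and 0.0157% of all gene probes. At an unadjusted p under 0.05 it called 1 member as lower, RPL16B, against 5.13% of all probes, and with a 1.7-fold difference added, the study's threshold, it called 0 members against 1.47%. Against the reference, 0 members were called at an adjusted p under 0.05 in standard phosphate, where 0.0783% of all probes were, and 0 in low phosphate, where 0.297% were. At an unadjusted p under 0.05 these comparisons called 3 and 19 of the 127 members, fewer by share than the 11.1% and 26.4% of all gene probes. The median SE of a difference was 0.21 for the members and 0.12 over all gene probes. With low phosphate a left out, the fit called 96 of 127 members and 31.8% of all gene probes between the conditions, under the assumption that the lone low phosphate array varies like the standard arrays. Against the reference it called 105 members and 39.2% of all gene probes in low phosphate. With low phosphate b left out it called 0 members between the conditions and 1.5% of all gene probes.

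The size of the shift depended on the curve used to balance the dyes, and these spots sit at the bright end of the range, where few others lie. The members' median log2 intensity was 13.8 against 8.25 for all gene probes, between 121 and 125 of the 127 members were above the 90th percentile of intensity on each array, and of the 128 gene probes at least as bright as the median member, 64 were members. A loess curve through all gene spots thus rests there on ribosomal protein spots and others in equal number. With the 254 ribosomal protein spots given no weight in the curve, the members' medians were -0.11, -0.055, -0.20 and -1.38 on standard a, standard b, low a and low b, and the median difference was -0.71 with 127 of 127 lower. Low phosphate a now lay below both standard arrays in its median, by -0.12 against their mean. Above the median member this curve rested on 64 other probes.

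Other ways of balancing the dyes gave differences between -0.11 and -0.66. Centring each array on its median, with no curve, gave medians of -0.57, 0.20, -0.35 and -1.05 and a difference of -0.51, so that the standard arrays with opposite dyes lay far apart and low phosphate a lay between them. A curve through the external spike-in spots gave -0.13, 0.34, -0.29 and -0.79 and a difference of -0.66. Its brightest spike-in probe reached a log2 intensity of 10.8, and by mean intensity only RPL4A, RPL16A, RPS20, RPS27A and RPL22B were dimmer than that. For all other members the curve was extended beyond its own points. In the deposited log2 ratios the medians were -0.12, -0.039, -0.064 and -0.26 and 87 of 127 members had a lower mean. Low phosphate b had the lowest of the 4 medians, and the median difference was negative, under each of the 10 normalizations in the plot of medians by normalization. The order of the other 3 arrays changed among them.

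**Figure D2:**
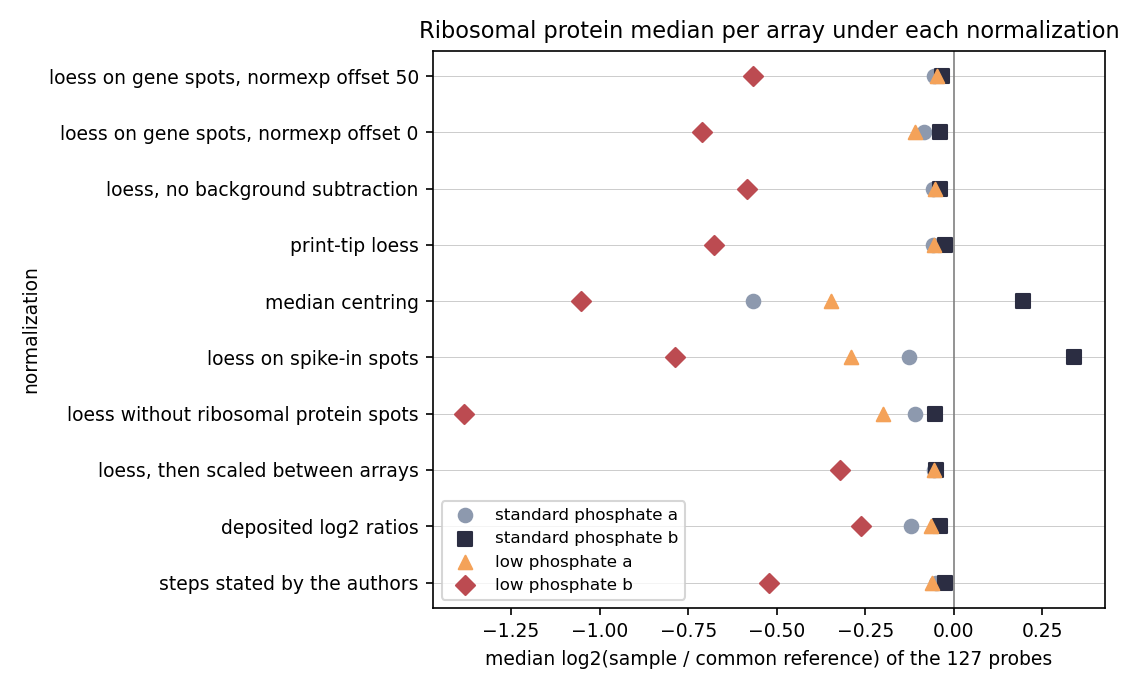
Median log2 ratio of sample over reference of the 127 ribosomal protein probes (horizontal axis) on each array (symbols) under 10 normalizations (vertical axis). The diamond of low phosphate b is leftmost in each line, from -0.26 with the deposited ratios to -1.38 with the curve that left out the ribosomal protein spots.

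The raw signal showed the same array apart with no curve at all. Summed over spots after background subtraction, the members held 21.9% of the gene spot signal in the sample channel of standard phosphate a, 27.7% in standard phosphate b, 25.7% in low phosphate a and 16.5% in low phosphate b. In the reference channel, which held the same RNA throughout, they held 26.8%, 28.6%, 31.1% and 31.9%. The log2 ratio of these shares, sample over reference, was -0.29, -0.049, -0.27 and -0.95, a measure chosen after the values had been seen. Low phosphate a and standard phosphate a were -0.27 and -0.29 on it, with the same dye. On standard phosphate a, 168 of the 254 member spots were above 32768 units and close to saturation, all of them in the reference channel and 2 also in the sample channel, against 2 on each other array. A saturated reference spot reads too low. With nearly saturated spots left out, which took standard phosphate a from many members, the median difference was -0.29. These spots were left out only after the curve had been fitted, so they still shaped the curve. Over the 48 members that kept values on all 4 arrays it was -0.37, with 48 lower.

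Within the members, the difference followed spot brightness, in opposite directions under the 2 curves, and the trend was not alike on the 4 arrays. With the curve through all gene spots, the median difference was -0.35 in the 43 dimmest members, -0.30 in the next 42 and -0.22 in the 42 brightest. With the ribosomal protein spots out of the curve the same members gave -0.63, -0.76 and -0.77. Spearman's correlation of intensity with the difference, across the 127 probes, was 0.54 with the first curve and -0.38 with the second, a description over points that share the same 4 arrays. The lowest and highest members below are therefore given with their values under both curves.

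**Figure D3:**
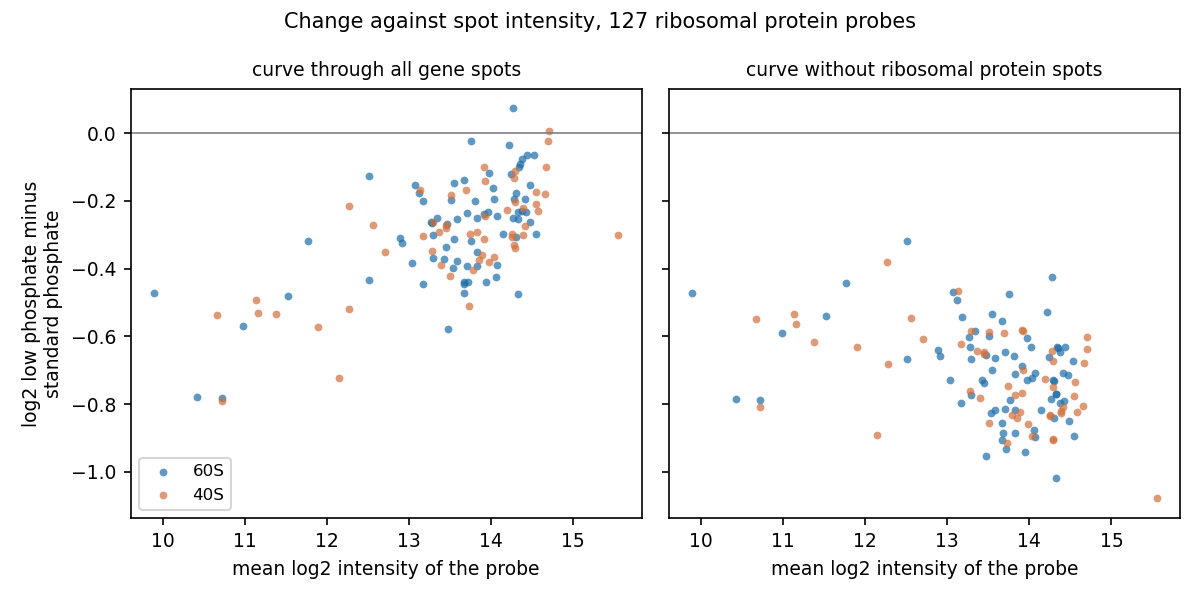
Difference low minus standard phosphate in log2 units (vertical axis) against the mean log2 intensity of the probe over the 4 arrays (horizontal axis) for 127 ribosomal protein probes, with the curve through all gene spots (left) and without ribosomal protein spots (right). The points climb with intensity on the left (Spearman 0.54) and descend on the right (-0.38).

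In the large subunit, the 5 probes with the lowest difference were RPL22B, RPL16A, RPL31B, RPL33B and the dimmer of the RPL9B probes. RPL22B, a copy of a 60S protein that cells can live without, was at -0.10 and -0.080 under standard and -0.21 and -1.53 under low phosphate (arrays a and b in each case, as in all such sentences that follow). Its difference was -0.78 (SE 0.47, adjusted p = 0.468 by limma), or 1.72-fold lower in low phosphate. Both low arrays lay below both standard arrays, low phosphate a by little and low phosphate b by a wide margin. RPL16A was at -0.24 and -0.10 under standard and -0.36 and -1.55 under low phosphate, with a difference of -0.78 (SE 0.43). RPL31B, whose protein sits by the exit of the tunnel for the growing chain, was at 0.20 and 0.20 under standard and 0.010 and -0.77 under low phosphate, with a difference of -0.58 (SE 0.29). The conditions did not overlap for either of these genes. RPL33B was at -0.32 and -0.19 under standard and -0.31 and -1.35 under low phosphate, and the dimmer RPL9B probe at -0.26 and -0.0077 under standard and -0.17 and -1.06 under low phosphate. Their low phosphate a value lay between the standard values, so that both differences, -0.57 and -0.48, came from low phosphate b. The brighter RPL9B probe had a difference of -0.25, and the RPL35A probes -0.23 and -0.23. Without ribosomal protein spots in the curve the differences of RPL22B, RPL16A, RPL31B, RPL33B and the dimmer RPL9B probe were -0.79, -0.79, -0.95, -0.59 and -0.54, against a members' median of -0.71.

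RPL16B was the one member with an unadjusted p under 0.05. It was at 0.12 and 0.032 under standard and -0.20 and -0.53 under low phosphate, with a difference of -0.44 (SE 0.15, adjusted p = 0.420 by limma). Its arrays of a condition lay closer together than those of most members, and the conditions did not overlap. With the deposited log2 ratios its difference was 0.093, with the opposite sign.

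At the other end of the large subunit stood RPL28, RPL1B, RPL25, RPL41B and the stalk gene RPP1B, which is given with the other stalk genes. RPL28, the protein altered in classical cycloheximide-resistant mutants, was at -0.19 and -0.053 under standard and 0.094 and -0.19 under low phosphate, the only 60S probe with a higher mean (0.073, SE 0.14). RPL1B, of the mobile stalk by which spent tRNA leaves, was at -0.29 and -0.098 under standard and -0.018 and -0.44 under low phosphate. RPL25, to which factors bind that meet the new protein at the tunnel exit, was at 0.038 and -0.051 under standard and 0.067 and -0.21 under low phosphate. RPL41B, which encodes the smallest ribosomal protein, was at 0.24 and 0.076 under standard and 0.20 and -0.021 under low phosphate. Low phosphate a lay above both standard arrays in RPL28, RPL1B and RPL25 and between them in RPL41B, and low phosphate b was close to or below the lower standard array in all 4. The differences of RPL1B, RPL25 and RPL41B were -0.034, -0.065 and -0.065, with SEs of 0.19, 0.13 and 0.13. With the ribosomal protein spots out of the curve, RPL28 was at -0.42 and RPL25 at -0.67, both below 0.

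Among 60S members with well-known positions or partners, the differences ran from -0.30 to -0.12. RPL3, which reaches into the peptidyl transferase centre, was at 0.21 and 0.025 under standard and -0.035 and -0.33 under low phosphate, with a difference of -0.30 (SE 0.15) and no overlap between the conditions. RPL5 and RPL11, which enter the ribosome in a complex with 5S ribosomal RNA, are represented by RPL5 at -0.11 and -0.17 under standard and -0.034 and -0.74 under low phosphate and RPL11B at -0.028 and 0.041 under standard and 0.010 and -0.49 under low phosphate. Their differences were -0.25 and -0.24, and low phosphate a lay above both standard arrays in RPL5 and between them in RPL11B. RPL10, among the last proteins to join the subunit, was at -0.090 and -0.27 under standard and -0.065 and -0.59 under low phosphate, with a difference of -0.15 (SE 0.21). RPL40A and RPL40B, which encode a ribosomal protein fused to ubiquitin, were at -0.22 and -0.011 under standard and -0.16 and -0.32 under low phosphate and at -0.23 and -0.12 under standard and -0.057 and -0.57 under low phosphate. The conditions overlapped in both, and their differences were -0.12 and -0.14.

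The stalk proteins form a flexible arm of the 60S subunit that recruits elongation factors, with RPP0 at its base and the acidic proteins RPP1A, RPP1B, RPP2A and RPP2B bound to it. RPP0 was at -0.25 and 0.023 under standard and -0.26 and -0.56 under low phosphate. RPP1A was at -0.096 and 0.11 under standard and -0.16 and -0.61 under low phosphate, and RPP2A at -0.031 and -0.083 under standard and -0.27 and -0.63 under low phosphate. In these 3 genes both low phosphate arrays lay below both standard arrays. RPP1B was at -0.31 and -0.18 under standard and -0.085 and -0.45 under low phosphate, and RPP2B at -0.18 and 0.0097 under standard and -0.056 and -0.50 under low phosphate. Here low phosphate a lay above both standard arrays for RPP1B and between them for RPP2B. The differences were -0.30 for RPP0, -0.39 for RPP1A, -0.39 for RPP2A, -0.022 for RPP1B and -0.20 for RPP2B, with SEs from 0.15 to 0.19 and adjusted p-values by limma from 0.420 to 0.959. Under the curve without ribosomal protein spots the 5 differences lay between -0.88 and -0.47.

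In the small subunit, the lowest differences were those of RPS27A, RPS9A, RPS7B, RPS20 and RPS6A. RPS27A, a copy of a zinc-binding 40S protein, was at -0.12 and -0.18 under standard and -0.26 and -1.63 under low phosphate, the lowest value of any member on low phosphate b and the lowest difference of all (-0.79, SE 0.49, adjusted p = 0.476 by limma, 1.73-fold lower). RPS9A, whose protein lies near the entry of the mRNA channel and affects reading accuracy, was at -0.054 and 0.20 under standard and -0.17 and -1.13 under low phosphate, with a difference of -0.72 (SE 0.36). Both genes showed no overlap between the conditions. RPS7B was at -0.20 and -0.061 under standard and -0.13 and -1.27 under low phosphate. RPS20, of the head of the subunit, was at -0.12 and -0.17 under standard and -0.13 and -1.24 under low phosphate. RPS6A, a copy of the protein that is phosphorylated downstream of TORC1, was at 0.049 and 0.20 under standard and 0.13 and -0.95 under low phosphate. In these 3 genes low phosphate a lay within the range of the standard arrays, and their differences of -0.57, -0.54 and -0.53 came from low phosphate b. All 5 were dim for this family, with log2 intensities from 10.7 to 12.1, and with the ribosomal protein spots out of the curve their differences were -0.81, -0.89, -0.63, -0.55 and -0.62.

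The highest 40S differences were those of RPS8A, RPS2, RPS4A, RPS25A and RPS10B. RPS8A was at 0.064 and -0.18 under standard and -0.0015 and -0.11 under low phosphate, the only 40S probe with a higher mean (0.0066, SE 0.13). RPS2, near the entry of the mRNA channel, was at -0.11 and -0.093 under standard and -0.037 and -0.21 under low phosphate. RPS4A was at 0.20 and -0.20 under standard and 0.038 and -0.23 under low phosphate. The conditions overlapped in all 3 genes. RPS25A, whose protein serves initiation at some internal ribosome entry sites, was at -0.032 and -0.042 under standard and -0.043 and -0.23 under low phosphate, and RPS10B, of the head of the subunit, at -0.053 and 0.028 under standard and 0.084 and -0.33 under low phosphate. Low phosphate b was the lowest array in both. These 5 probes had log2 intensities from 13.9 to 14.7, above all 5 of the lowest genes, and with the ribosomal protein spots out of the curve their differences were -0.60, -0.64, -0.68, -0.58 and -0.67.

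Among 40S genes with a known role outside the fold of the subunit, RPS31 encodes a protein fused to ubiquitin, as RPL40A and RPL40B do in the large subunit. It was at 0.030 and 0.062 under standard and -0.068 and -0.59 under low phosphate, with no overlap between the conditions and a difference of -0.37 (SE 0.20). RPS14A and RPS14B encode a protein of the platform that in yeast binds the RPS14B message and holds back its splicing. RPS14A was at -0.26 and -0.20 under standard and -0.037 and -0.85 under low phosphate, and RPS14B at -0.19 and -0.29 under standard and 0.025 and -0.84 under low phosphate. In both copies low phosphate a was the highest of the 4 arrays and low phosphate b the lowest, and their differences were -0.21 and -0.17. The 17 symbols without a copy letter, stalk excluded, had a median difference of -0.25, and 16 of them had a lower mean.

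The annotation allowed 46 pairs of an A and a B copy, 24 in the 60S and 22 in the 40S subunit. As groups the copies gave nearly the same values. The A copies had a median difference of -0.30 and the B copies of -0.30, and the A copy had the lower difference in 24 pairs and the B copy in 22. The median of the change in A minus the change in B was -0.012, and its median size without regard to sign was 0.126. On single arrays, the median size of the A minus B gap was 0.081 and 0.059 in standard phosphate, 0.060 on low phosphate a and 0.20 on low phosphate b. Copies thus lay as close on low phosphate a as in standard phosphate and further apart on low phosphate b. The sequences of the probes were not used here, and how far a probe for one copy also binds the message of the other, which would draw the values of a pair together, was not tested.

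The pairs with the widest gap between the changes of their copies were RPS27, RPL22, RPS25, RPL16, RPL33, RPL34, RPL31 and RPS28. The ratio of RPS27A minus that of RPS27B was 0.13 and -0.13 under standard and -0.059 and -1.06 under low phosphate, so that low phosphate a lay between the standard arrays and low phosphate b far below them. RPS27B itself was at -0.26 and -0.055 under standard and -0.20 and -0.57 under low phosphate. For RPL22, the gap of A over B was 0.041 and -0.041 under standard and 0.29 and 0.60 under low phosphate, with RPL22A itself at -0.062 and -0.12 under standard and 0.080 and -0.93 under low phosphate. Both low phosphate arrays lay above both standard arrays in this gap, and RPL22A lay above RPL22B on each of them. For RPS25 the gap was 0.15 and 0.014 under standard and 0.17 and 0.85 under low phosphate, and RPS25B was at -0.18 and -0.056 under standard and -0.21 and -1.08 under low phosphate. For RPL16 it was -0.35 and -0.13 under standard and -0.16 and -1.01 under low phosphate, and for RPL33 0.13 and 0.036 under standard and 0.12 and 0.65 under low phosphate, with RPL33A at -0.20 and -0.16 under standard and -0.19 and -0.70 under low phosphate. In RPL16 and RPL33 low phosphate a lay within the range of the standard arrays. In each of these first 5 pairs the copy with the lower difference was the dimmer one, by 2.30 to 3.48 in log2 intensity. With the ribosomal protein spots out of the curve the gap between the changes of the copies was -0.083 for RPS27, 0.051 for RPL22, -0.018 for RPS25, 0.15 for RPL16 and -0.042 for RPL33. The curve through all gene spots gave -0.56, 0.45, 0.43, -0.34 and 0.30. The deposited log2 ratios gave -0.77, 0.62, 0.40, -0.88 and 0.54 for the same pairs in turn.

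The other 3 of these pairs had copies of more similar brightness, with log2 intensities 0.35, 0.67 and 0.29 higher in the A copy for RPL34, RPL31 and RPS28. RPL34A was at 0.042 and 0.046 under standard and 0.13 and -0.36 under low phosphate and RPL34B at 0.13 and 0.0060 under standard and -0.013 and -0.74 under low phosphate, a gap of -0.092 and 0.040 under standard and 0.14 and 0.38 under low phosphate. RPL31A was at 0.26 and 0.11 under standard and 0.17 and -0.40 under low phosphate, which left a gap to RPL31B of 0.059 and -0.090 under standard and 0.16 and 0.37 under low phosphate. For RPS28, of the mRNA exit channel, RPS28A was at -0.064 and -0.050 under standard and -0.062 and -0.60 under low phosphate and RPS28B at -0.090 and -0.018 under standard and -0.13 and -1.02 under low phosphate. In all 3 pairs both low phosphate arrays showed the A copy higher, relative to the B copy, than both standard arrays did. Over all 46 pairs the gap did not overlap between the conditions in 16, in either direction. In their single ratios, 26.8% of all gene probes did not overlap in the lower and 26.5% in the higher direction. No such share is given for gaps between other probes, so the lack of overlap cannot be read as particular to gene copies. These 3 pairs were listed for their wide change in gap. The changes differed by 0.28, 0.28 and 0.25 with the curve through all gene spots, by 0.22, 0.14 and 0.14 without ribosomal protein spots in it, and by 0.027, 0.10 and 0.27 in the deposited log2 ratios. These 3 gaps kept their sign under the 3 settings, as did those of RPS27 and RPL22 but not those of RPS25, RPL16 and RPL33.

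**Figure D4:**
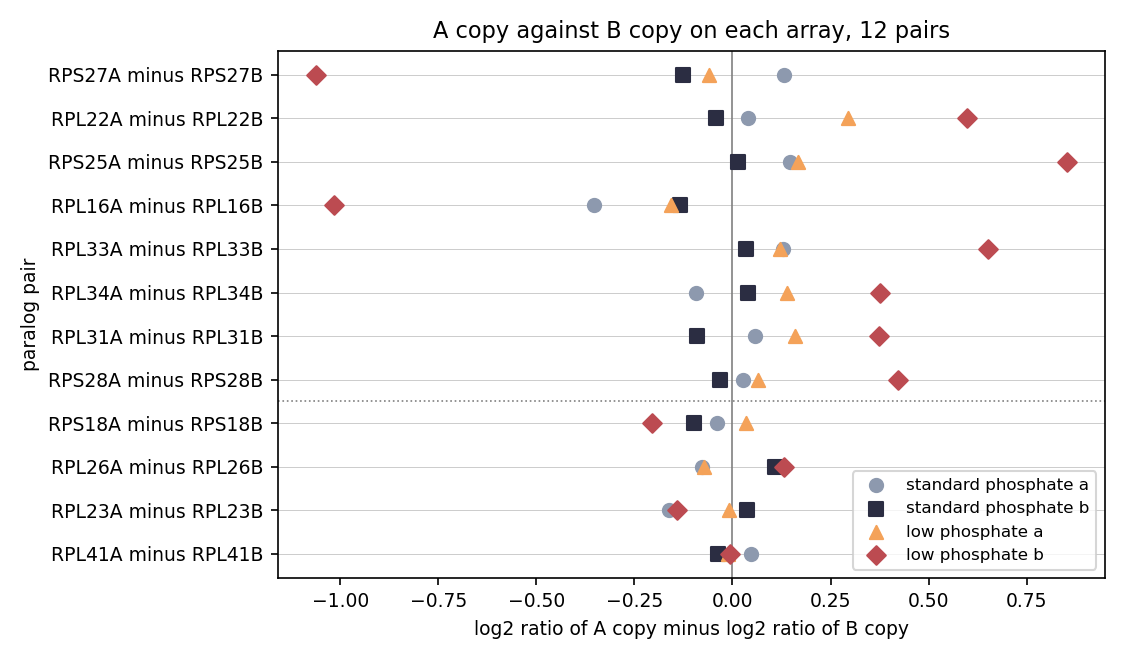
Log2 ratio of the A copy minus that of the B copy (horizontal axis) on each array (symbols) for the 8 pairs with the widest and, below the dotted line, the 4 pairs with the narrowest gap between the changes of their copies (vertical axis). In the upper 8 pairs the diamond of low phosphate b lies farthest from 0, from -1.06 for RPS27 to 0.85 for RPS25.

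The narrowest gaps were those of RPL41, RPL23, RPL26 and RPS18. RPL41A was at 0.28 and 0.038 under standard and 0.19 and -0.026 under low phosphate, close to RPL41B on every array, and the gap was 0.046 and -0.038 under standard and -0.010 and -0.0054 under low phosphate. RPL23A and RPL23B, on the face that meets the small subunit, were at -0.28 and 0.045 under standard and -0.17 and -0.71 under low phosphate and at -0.11 and 0.0069 under standard and -0.16 and -0.57 under low phosphate. RPL26A and RPL26B, near the tunnel exit, were at -0.10 and 0.049 under standard and -0.15 and -0.75 under low phosphate and at -0.025 and -0.059 under standard and -0.073 and -0.89 under low phosphate. RPS18A and RPS18B, of the head of the small subunit, were at -0.034 and 0.040 under standard and -0.099 and -0.52 under low phosphate and at 0.0059 and 0.14 under standard and -0.13 and -0.32 under low phosphate. The changes of the copies of these pairs differed by -0.012, -0.012, 0.015 and -0.016 in turn. In RPL23, RPL26 and RPS18 the arrays of a condition differed from each other in the gap by more than the conditions did.

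Over all 46 pairs, the dimmer copy had the lower difference in 39, with a median of -0.11 for dimmer minus brighter, a comparison chosen after the values had been seen. On low phosphate b alone it held in 42 pairs (-0.19) and on low phosphate a alone in 24 (-0.022). It held in 22 pairs (0.020) without ribosomal protein spots in the curve, in 23 (0.0049) with the spike-in curve, in 25 (-0.086) with a curve for each print tip, and in 26 (-0.033) with median centring. It held in 36 (-0.100) with a normexp offset of 0, in 39 (-0.11) with no background subtraction, in 32 (-0.081) with scaling between arrays, in 32 (-0.11) with the deposited ratios and in 29 (-0.087) with the steps stated by the authors.

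**Figure D5:**
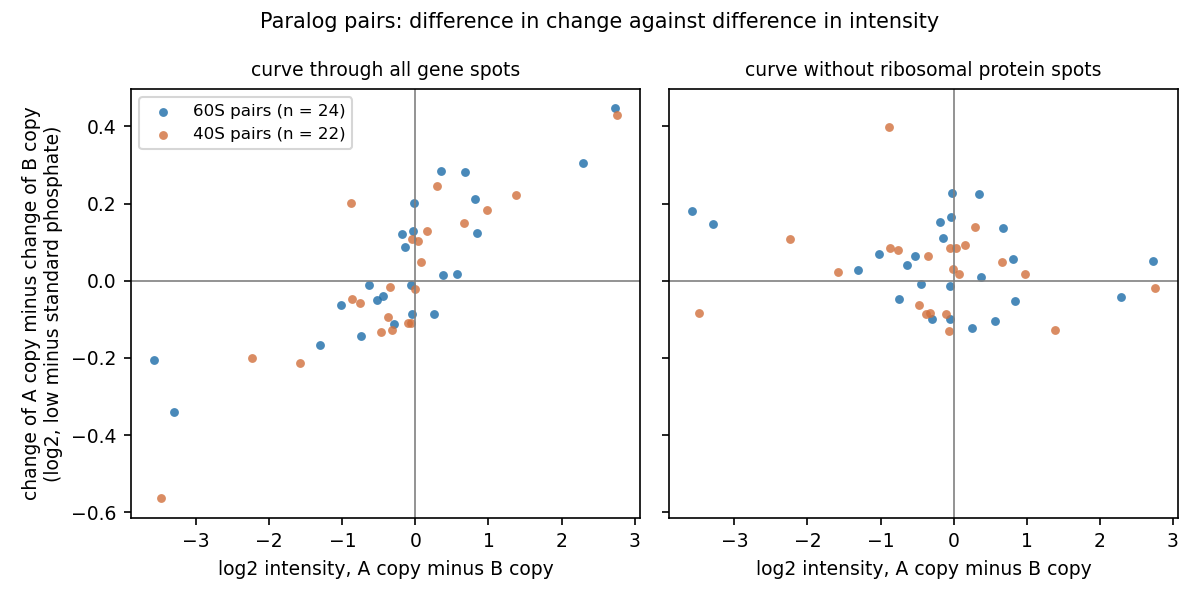
Change of the A copy minus change of the B copy, low minus standard phosphate in log2 units (vertical axis), against the A minus B difference in mean log2 intensity (horizontal axis) for 24 pairs of the 60S and 22 of the 40S subunit, with the curve through all gene spots (left) and without ribosomal protein spots (right). On the left the dimmer copy is the lower one in 39 of 46 pairs and on the right in 22.

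The regulators of these genes differed in direction. Of 17 measured factors, 9 were lower and 8 higher by their means, with a median difference of -0.015. By limma, 0 passed an adjusted p under 0.05, beside 0.0157% of all gene probes. At an unadjusted p under 0.05 by limma, 1 was lower and 3 were higher, beside 328 and 405 of all 6388 gene probes. The activators IFH1, SFP1, FHL1 and RAP1 had differences of -0.36, -0.25, -0.16 and -0.33. Elsewhere on the list, HMO1 had a difference of 0.090, with both low arrays above both standard arrays, and SCH9 one of -0.015. SFP1 was at 0.100 and 0.031 under standard and -0.10 and -0.27 under low phosphate, with both low arrays below both standard arrays. The kinase gene YAK1, which acts against ribosomal protein expression under protein kinase A, was at 0.043 and -0.15 under standard and 0.35 and 1.01 under low phosphate, with both low arrays above. TOD6 and DOT6 encode related repressors of ribosome assembly genes. TOD6 was at 0.34 and 0.19 under standard and -0.27 and -1.24 under low phosphate and DOT6 at -0.094 and -0.33 under standard and 0.25 and 0.32 under low phosphate, in opposite directions on both low phosphate arrays. Their differences of -1.03 and 0.50, and that of YAK1 (0.73), had an adjusted p by limma of 0.420 each.

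The chaperones and importers that carry ribosomal proteins, with the factors that meet new chains at the tunnel, had a median difference of -0.61, and 16 of 17 had a lower mean. Their medians were 0.20 and 0.078 under standard and -0.082 and -0.81 under low phosphate, so both low arrays lay below both standard arrays here, as they did for 12 of the 17 genes, beside 26.8% of all gene probes. RRB1, the chaperone of the RPL3 protein, was at 0.45 and 0.20 under standard and -0.16 and -1.51 under low phosphate. SQT1, that of the RPL10 protein, was at 0.24 and 0.058 under standard and -0.11 and -0.90 under low phosphate, and YAR1, that of the RPS3 protein, at 0.20 and 0.20 under standard and -0.26 and -0.64 under low phosphate. TSR2, which serves the RPS26 protein, was at 0.78 and 0.52 under standard and 0.13 and -0.94 under low phosphate. Low phosphate a lay below both standard arrays in these 4 genes. Among the genes of their clients, low phosphate a lay below both standard arrays in RPL3, RPS3, RPS26A and RPS26B and above both in RPL10. None of the 17 passed an adjusted p under 0.05 by limma, beside 0.0157% of all gene probes. At an unadjusted p under 0.05 by limma, 2 were lower, beside 5.13% of all gene probes. The median log2 intensity of this list was 10.8, well below that of the ribosomal proteins, so its values rest on another stretch of the curve.

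Mitochondrial ribosomal proteins, encoded by other genes, had a median difference of -0.12 (58 of 68 lower), with medians of 0.11 and 0.13 under standard and 0.011 and 0.0049 under low phosphate. In these medians the low phosphate arrays lay close together, where those of the cytoplasmic proteins lay apart. Both low arrays lay below both standard arrays in 42 of the 68 mitochondrial genes and above both in 5. Of all gene probes, 26.8% and 26.5% did so. Elongation and termination factors of the cytoplasm had a median difference of -0.088 (10 of 15 lower), with -0.42 on low phosphate b. Without ribosomal protein spots in the curve their median was -0.43, against -0.71 for the ribosomal proteins. Neither difference between lists was tested.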

How the data were processed

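4 spotted arrays in 2 groups of 2 were used, grouped by their labels. Each deposited scan gives, for 15552 spots, a mean intensity and a median background intensity in either channel, which the authors read with an Agilent scanner and Imagene and did not normalize. A deposited table of processed log2 ratios, 1 for each spot, was made by the authors with print-tip loess (span 0.4, no background subtraction) and a gene-specific dye correction, and it served as an alternative. Set against the scanner values, their correlation with log2 Cy5 over Cy3 was -0.65 and -0.91 on the a arrays and 0.68 and 0.94 on the b arrays, which fits sample over reference with the dyes of the labels; their medians were -0.0072, -0.0059, -0.012 and -0.0063. The series text names the opposite dye for the first array; the labels were followed. A deposited table of mean log2 values and p-values per condition (limma 2.12.0, per the labels) holds the authors' own comparisons and was not used.

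Background was corrected by normexp with an offset of 50. Each array was normalized by loess (span 0.3) on gene spots, with control spots at no weight, in limma 3.58.1 and R 4.3.3. Ratios were turned to sample over reference and the 2 spots of each probe averaged. No probe was filtered out. Group means were fitted with lmFit and eBayes on all 4 arrays (2 residual degrees of freedom), two-sided, adjusted over 6388 probes. Each group against the reference is a test against 0 and leaves out the spread of the reference, which is a single pool. The script was tested on simulated data. All 125 symbols were found in the RefSeq table. Members and lists were chosen with earlier results of these data known. Named with 4 values are the 5 lowest and 5 highest members of each subunit, the 8 widest and 4 narrowest pairs, the stalk proteins, any member called after adjustment, and genes with textbook roles; a pair uses the brighter probe of a symbol. RPP1A and RPP1B, and RPP2A and RPP2B, are different proteins and were not treated as copies. List genes named in the text are examples chosen after their values were seen. Alternatives were another offset, no background subtraction, print-tip loess, median centring, curves on spike-in spots and without ribosomal protein spots, scaling between arrays, the deposited ratios, the authors' stated steps, no nearly saturated spots (above 32768), no dim probes (the lowest 25%), each array left out, a replicate block, and a trended, robust fit.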

Additional observations from a re-analysis of the deposited data

How the results depend on the processing

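The ribosomal protein median difference was negative under every alternative run, -0.28 as reported, -0.66 with the spike-in curve and -0.71 with the curve without ribosomal protein spots, where the 60S median was -0.66 and -0.71 and the 40S median -0.68 and -0.74. From the signal shares it was -0.44, an alternative added after seeing the data. The 60S minus 40S gap was 0.035 as reported, -0.050 with print-tip loess, -0.021 with the deposited ratios and -0.0023 with the authors' stated steps. The median of A minus B was -0.012 as reported, -0.10, -0.082 and -0.088 with print-tip loess, the deposited ratios and the authors' steps, and 0.034, 0.034, 0.035 and 0.025 with median centring, the spike-in curve, the curve without ribosomal protein spots and scaling between arrays. Ordered by intensity in place of letter it was -0.11, also added after seeing the data. Its median size was 0.13 as reported and 0.29, 0.23 and 0.27 with the first 3 of these. Members without overlap between the conditions numbered 44 as reported, 10 with median centring, 98 with the spike-in curve, 80 without ribosomal protein spots in the curve and 17 without nearly saturated spots, where fewer members had 4 values. The share of all gene probes without overlap under these alternatives is not given here, so the counts cannot be read as particular to the members. Low phosphate against the reference called 3 members after scaling between arrays and 0 as reported. Leaving out 1 array at a time, the median difference ranged over -0.56 to -0.0088 for all members, -0.55 to 0.00093 for 60S and -0.56 to -0.033 for 40S, the subunit gap over 0.00036 to 0.040, the A minus B median over -0.018 to 0.034, members called over 0 to 96 between the conditions, 0 to 1 for standard and 0 to 105 for low phosphate against the reference, and members without overlap over 63 to 125. The highest counts came without low phosphate a, the medians nearest 0 for all members and for either subunit without low phosphate b. The lowest subunit gap came without standard phosphate a. With an array left out, fewer values have to separate for no overlap, and the share of all gene probes is not given here either. The members without overlap in these fits thus cannot be set against the 44 as reported. Of the named members, none of them called as reported, these changed sign. With a normexp offset of 0 the differences were -0.021 for RPL28, -0.12 for RPS8A. With no background subtraction the difference was -0.0054 for RPS8A. With print-tip loess the differences were 0.026 for RPL25, 0.052 for RPP1B, -0.078 for RPL28, 0.074 for RPS28A, 0.0011 for RPS27B, 0.15 for RPL10. With median centring the differences were -0.20 for RPL28, -0.37 for RPS8A. With the spike-in curve the differences were -0.37 for RPL28, -0.54 for RPS8A. With the curve without ribosomal protein spots the differences were -0.42 for RPL28, -0.60 for RPS8A. With scaling between arrays the differences were 0.083 for RPL1B, 0.11 for RPP1B, 0.0032 for RPS4A, 0.041 for RPS2, 0.043 for RPL10, 0.017 for RPS14A, 0.089 for RPS14B, 0.0050 for RPL40B. With the deposited ratios the differences were 0.040 for RPL41B, 0.14 for RPL25, 0.084 for RPP1B, 0.078 for RPS10B, 0.025 for RPL34A, 0.059 for RPS28A, 0.036 for RPL41A, 0.14 for RPS27B, 0.093 for RPL16B, 0.018 for RPP2B, 0.22 for RPL10, 0.059 for RPS31, 0.036 for RPL40B. With the authors' stated steps the differences were 0.0027 for RPL25, 0.048 for RPP1B, -0.089 for RPS8A, 0.0069 for RPL34A, 0.078 for RPS28A, 0.066 for RPS27B, 0.23 for RPL10. With nearly saturated spots left out the differences were 0.014 for RPL41B, 0.10 for RPS4A, 0.044 for RPL41A. With 1 array left out at a time the ranges of those that changed sign were -0.18 to 0.046 for RPL41B, -0.30 to 0.10 for RPS4A, -0.20 to 0.044 for RPL41A, -0.25 to 0.18 for RPL1B, -0.21 to 0.16 for RPP1B, -0.12 to 0.13 for RPS8A, -0.069 to 0.21 for RPL28, -0.20 to 0.074 for RPL25, -1.09 to 0.017 for RPS20, -1.08 to 0.0078 for RPS6A, -0.32 to 0.096 for RPS10B, -0.11 to 0.064 for RPS2, -0.84 to 0.17 for RPL22A, -0.41 to 0.083 for RPL34A, -0.42 to 0.028 for RPP2B, -0.60 to 0.11 for RPL5, -0.41 to 0.12 for RPL10, -0.49 to 0.0039 for RPL11B, -0.62 to 0.20 for RPS14A, -0.60 to 0.27 for RPS14B, -0.39 to 0.11 for RPL40B. With the replicate block the median difference was -0.28 and 0 members were called. The letter marks the dye and may mark a culture, and the deviations of a and b correlated by 0.28 over all probes and -0.11 over members. The cause of the changes was not tested.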
